A study of Mus musculus with 12 samples.

Results

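The 8 genes described here encode surface proteins and a lectin, most of which are known to engage T cell checkpoint receptors. They are Cd274, Pdcd1lg2, Cd80, Cd86, Cd276, Lgals9, Pvr and Tnfrsf14. They were chosen by symbol as ligands of PD-1, CTLA-4, TIM-3 and TIGIT, with the B7 family member Cd276 and with Tnfrsf14. Each symbol matched 1 Ensembl identifier. They are 8 of the 47069 genes in the tables, and all 8 passed the filter on low counts. RNA-seq was run on 12 dissected intracranial tumors, grown from B16 F1 cells, a pigmented mouse melanoma line, in the brain of C57BL/6 mice. Every mouse received 100000 cells in the brain, and tissue was taken at day 9. The study asks how anti-PD-1 with anti-CTLA-4 acts on brain melanoma when melanoma is also present outside the brain.

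The libraries form 4 groups of 3 tumors. The both-tumor therapy group had an intracranial and an extracranial tumor and received anti-PD-1 plus anti-CTLA-4. The both-tumor IgG group had the same tumors and received the IgG control antibody. The intracranial-only therapy group had the brain tumor alone and received anti-PD-1 plus anti-CTLA-4. The intracranial-only IgG group had the brain tumor alone and received IgG. In all 4 groups the sequenced tissue was the brain tumor, grown from 1 implanted cell line, and no group without a tumor is among the samples. The sources used here do not state sex, age, antibody dose or schedule. The series text calls the 3 tumors of a group biological triplicates, so p-values measure the spread between these tumors.

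Checkpoint ligands sit on tumor cells and on antigen-presenting cells and bind receptors on T cells. PD-L1 and PD-L2 bind PD-1 and restrain T cells, whereas CD80 and CD86 activate T cells through CD28 and are bound more tightly by the inhibitory receptor CTLA-4. Galectin-9 binds TIM-3, the poliovirus receptor CD155 binds the inhibitory TIGIT and the activating CD226, and HVEM binds BTLA, CD160 and LIGHT. Interferon gamma from T cells is a known inducer of PD-L1, and CD86 is a known marker of activated macrophages and microglia.

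Cd274 (PD-L1, ENSMUSG00000016496) and Pdcd1lg2 (PD-L2, ENSMUSG00000016498) are neighbours on the plus strand of chromosome 19 of GRCm38. Cd274 spans chr19:29367455-29388095 and Pdcd1lg2 spans chr19:29410919-29471161, with 22823 bases and 0 annotated genes between them. Cd80 (ENSMUSG00000075122) lies at chr16:38455561-38496335 on the plus strand and Cd86 (ENSMUSG00000022901) at chr16:36603869-36666081 on the minus strand. The other 4 genes lie on minus strands. Cd276 (B7-H3, ENSMUSG00000035914) is at chr9:58524298-58555437 and Lgals9 (galectin-9, ENSMUSG00000001123) at chr11:78962974-78984946. Pvr (CD155, ENSMUSG00000040511) is at chr7:19903578-19921160 and Tnfrsf14 (HVEM, ENSMUSG00000042333) at chr4:154921933-154928563. An antisense gene, A930007I19Rik, overlaps Pdcd1lg2 and had 20 to 69 reads per library. The sources used here do not state the strand setting of the counting, so reads of this pair cannot be told apart. Overlapping genes of Cd276 and Pvr had at most 22 reads per library.

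Promoters are shown because 6 of the 8 genes went up and down together across libraries and interferon-induced genes often carry known elements there. RefSeq promoters of GRCm38.p6, from 250 bases before to 50 bases after the RefSeq start, matched 6 of the 8 genes, without Cd86 and Pvr. For some genes this start differs from that of the GENCODE span given above. The windows of Tnfrsf14 (chr4:154928028-154928327), Cd80 (chr16:38458683-38458982) and Cd276 (chr9:58554984-58555283) lie inside those spans. Bases before the GENCODE starts of these genes were thus not searched. They were searched on both strands for GAAANNGAAA, the core of the interferon-stimulated response element, and for TTCNNNGAA, the gamma-activated site. Of 32851 mouse promoters of that length, 3.44% held the first motif and 8.3% the second. Tnfrsf14 held the first motif once, with its first base at -64, and Lgals9 held it at -55 and at 16, counted with the RefSeq start as base 1. Neither motif was found in the windows of Cd274, Pdcd1lg2, Cd80 and Cd276, and the second motif was in none of the 6. A match describes letters in the window and is no measure of binding. The Tnfrsf14 match lies in chr4:154928122-154928151 on the minus strand, and the Lgals9 matches lie in chr11:78984960-78984989 and chr11:78984890-78984919 on the minus strand. Capitals mark the match, which reads as the motif on the opposite strand.
Tnfrsf14 at -64: ctattttttcTTTCATTTTCacttttcctt
Lgals9 at -55: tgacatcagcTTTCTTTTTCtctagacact
Lgals9 at 16: atagctgtggTTTCTGTTTCctagctcagc

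The 64 bases just before the RefSeq starts of both PD-1 ligand genes are shown for comparison, since these neighbours held no match. They lie at chr19:29367374-29367437 for Cd274 and chr19:29410855-29410918 for Pdcd1lg2, on the plus strand.
Cd274: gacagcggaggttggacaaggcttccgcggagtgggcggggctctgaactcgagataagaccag
Pdcd1lg2: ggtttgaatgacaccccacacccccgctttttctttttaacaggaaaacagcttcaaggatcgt

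Library totals ran from 18427495 to 22294182 reads, of which the 8 genes took 2798 to 13960. The labelled tumor type was checked with 8 melanoma markers, whose summed level was 22570 to 30170 CPM (read counts scaled to library size with TMM factors) in the 12 libraries, with none at 0. Replicate 2 of the both-tumor IgG group stood apart from its group on the first principal component, at -115.1 against 35.62 and 54.65 for its 2 partners. The 3 intracranial-only therapy libraries lay at -103.6, -113 and -95.04, so this library lay beside another group than its labels give. The sample name of this both-tumor IgG library ends in B2 where all others end in B, and the labels used here do not say what this means. Its summed neuron markers were 5.96 CPM, against 284.6 and 459 CPM in the same group. Replicate 2 of the intracranial-only IgG group had 19.4 CPM of summed T cell markers, against 1.16 and 0.484 CPM in its partners.

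Per gene length, Lgals9 was the most abundant of the 8 genes in each of the 12 libraries. It ran from 49.6 to 202.8 FPKM (fragments scaled to gene length and library size) and made up 48.1% to 72.5% of the summed FPKM of the 8. Medians over the 12 libraries were 20.9 FPKM for Pvr, 12.9 FPKM for Cd274 and 10.4 FPKM for Cd276. Tnfrsf14 (5.34 FPKM), Cd86 (3.03 FPKM), Cd80 (0.551 FPKM) and Pdcd1lg2 (0.244 FPKM) followed, and the least abundant gene was Pdcd1lg2 or Cd80 in each library. Cd274 held second place in the therapy libraries with both tumors, at 25.6, 108.2 and 70.6 FPKM, where Pvr stood at 18.8, 13.1 and 14.2 FPKM. In the both-tumor IgG libraries Cd274 stood at 12.2, 2.33 and 13.7 FPKM and Pvr at 19.3, 24.96 and 12.7 FPKM. The ratio of Cd274 to Cd276, per length, was 3.46, 17.8 and 10.3 with therapy in mice with both tumors, against 1.00, 0.221 and 1.33 with IgG.

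**Figure D1:**
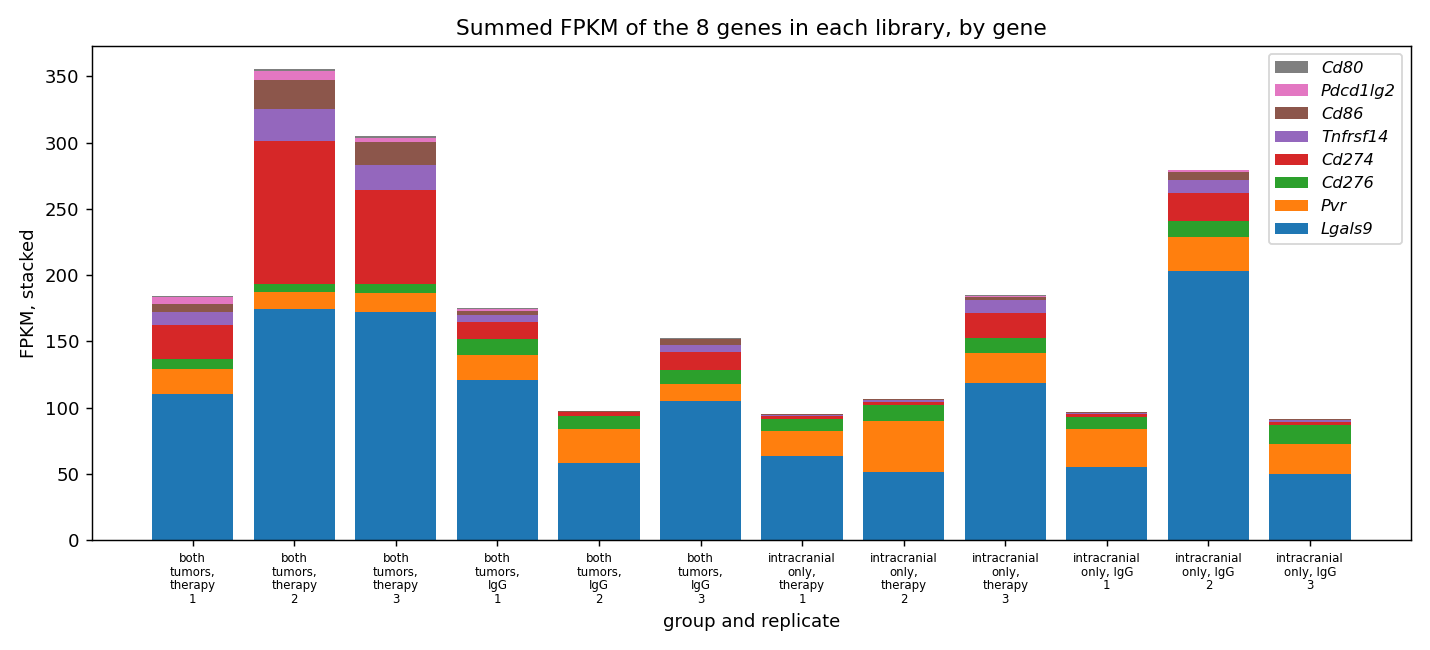
Stacked FPKM of the 8 genes in each of the 12 libraries, by group and replicate. Lgals9 is the largest block in every bar, and the Cd274 block is tallest in replicates 2 and 3 of the both-tumor therapy group, at 108.2 and 70.6 FPKM.

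The PD-1 ligands had their highest levels in mice with both tumors under therapy. Cd274 was at 89.1, 385.3 and 256 CPM in both-tumor therapy tumors, against 43.5, 8.79 and 47.5 CPM in both-tumor IgG tumors. It was at 8.52, 9.64 and 70.4 CPM in intracranial-only therapy tumors, against 7.43, 75.7 and 8.86 CPM in intracranial-only IgG tumors. The 3 both-tumor therapy libraries lay above all 9 others, and each intracranial-only group held 1 library far above its partners. Pdcd1lg2 was at 7.41, 11.7 and 5.83 CPM in both-tumor therapy tumors, against 1.82, 0.0505 and 0.297 CPM in both-tumor IgG tumors. In intracranial-only tumors it was at 0.0553, 0.274 and 0.507 CPM with therapy, against 0.105, 2.17 and 0.161 CPM with IgG. Again the 3 both-tumor therapy libraries did not overlap the rest, and reads of Pdcd1lg2 ran from 1 to 235 per library, so low values carry large counting error.

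The CD28 and CTLA-4 ligands had the same highest group at lower levels. Cd86 was at 7.05, 24.7 and 20.5 CPM in both-tumor therapy tumors, against 4.21, 0.354 and 5.11 CPM in both-tumor IgG tumors. Intracranial-only tumors had 0.387, 0.931 and 2.95 CPM of Cd86 with therapy, against 0.421, 6.76 and 0.967 CPM with IgG. Every both-tumor therapy library lay above the other 9, the nearest being intracranial-only IgG replicate 2. Cd80 was at 1.32, 1.69 and 2.25 CPM in both-tumor therapy tumors, against 1.01, 0.556 and 0.992 CPM in both-tumor IgG tumors. Levels in intracranial-only tumors were 0.498, 0.329 and 1.01 CPM with therapy, against 0.211, 0.878 and 0.215 CPM with IgG. The both-tumor therapy libraries again lay above the others, at 4 to 49 reads of Cd80 per library over the whole set. The ratio of Cd86 to Cd80, per length, was 7.71, 21.1 and 13.2 in both-tumor therapy tumors and 6.05, 0.918 and 7.43 in both-tumor IgG tumors.

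Tnfrsf14 and Lgals9 overlapped more between groups. Tnfrsf14, a tumor necrosis factor receptor family member that signals to and from T cells, was at 7.001, 17.5 and 13.9 CPM in both-tumor therapy tumors, against 3.83, 0.455 and 3.82 CPM in both-tumor IgG tumors. In intracranial-only tumors it was at 0.719, 0.822 and 7.23 CPM with therapy, against 0.579, 7.23 and 0.860 CPM with IgG. One high library in each intracranial-only group reached the lowest both-tumor therapy library. Lgals9 was at 131, 211 and 212.5 CPM in both-tumor therapy tumors, against 147, 75.2 and 124 CPM in both-tumor IgG tumors. Levels in intracranial-only tumors were 80.4, 65.8 and 150.1 CPM with therapy, against 69.0, 247 and 60.5 CPM with IgG. Its highest library was thus intracranial-only IgG replicate 2, and no 2 groups were apart.

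Cd276 and Pvr had the opposite pattern. Cd276, a B7 family member found on many solid tumors whose T cell receptor is not settled, was at 23.1, 19.4 and 22.28 CPM in both-tumor therapy tumors, against 38.9, 35.6 and 32.0 CPM in both-tumor IgG tumors. In intracranial-only tumors it was at 30.8, 40.9 and 38.6 CPM with therapy, against 31.7, 39.7 and 44.8 CPM with IgG. The 3 both-tumor therapy libraries lay below all 9 others, and its spread within groups was the smallest of the 8 genes. Pvr was at 32.3, 23.1 and 25.4 CPM in both-tumor therapy tumors, against 34.0, 46.6 and 21.7 CPM in both-tumor IgG tumors. Intracranial-only tumors had 33.4, 71.7 and 41.2 CPM with therapy, against 51.0, 45.9 and 41.2 CPM with IgG. The both-tumor groups overlapped for Pvr, while every both-tumor therapy library lay below every intracranial-only library.

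**Figure D2:**
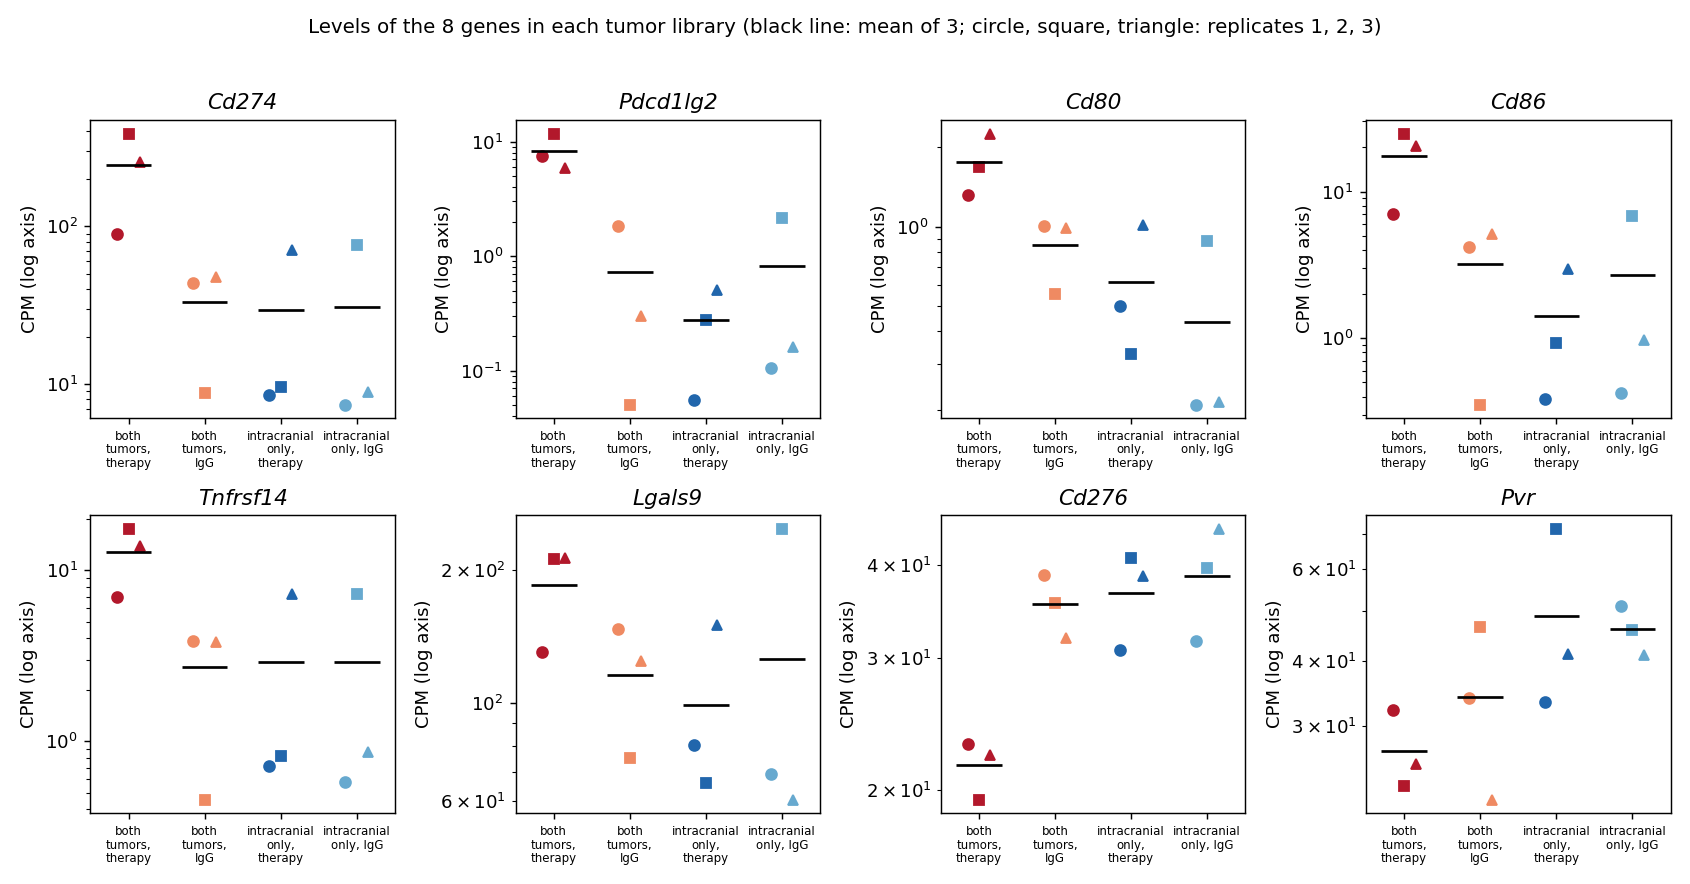
CPM of each gene (log axis) in the 12 libraries, in 4 groups of 3, with circle, square and triangle for replicates 1, 2 and 3 and a black line at the group mean. The both-tumor therapy libraries lie above all others for Cd274, Pdcd1lg2, Cd80 and Cd86 and below all others for Cd276, at 19.4 to 23.1 CPM.

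By group means, the both-tumor therapy group came first for Cd274, Pdcd1lg2, Cd80, Cd86, Tnfrsf14 and Lgals9, and last for Cd276 and Pvr. The order of the other 3 groups was not resolved for any of the 8 genes, since libraries of neighbours in the order overlapped each time. For Tnfrsf14, Lgals9 and Pvr the both-tumor therapy group also overlapped its neighbour. Cd274, for example, averaged 243.5 ± 148.5 CPM in both-tumor therapy, 33.3 ± 21.3 in both-tumor IgG, 29.5 ± 35.4 in intracranial-only therapy and 30.7 ± 39.0 in intracranial-only IgG (mean ± SD, n = 3 each).

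Setting therapy against IgG in both-tumor mice asks about the treatment in the presence of an extracranial tumor. Cd276 fell to 21.6 ± 1.93 CPM with therapy, against 35.5 ± 3.44 CPM with IgG (mean ± SD, n = 3 each). Its log2 fold change was -0.72 ± 0.16 (SE), with an adjusted p of 0.0498 in edgeR's quasi-likelihood test with Benjamini-Hochberg adjustment over 15925 genes. No gene had a smaller adjusted p in this comparison, so every call lay between this value and the threshold of 0.05. The other 7 genes did not pass, although Cd274, Pdcd1lg2, Cd80, Cd86 and Tnfrsf14 were higher in all 3 therapy libraries than in all 3 IgG libraries. So 1 of 8 genes was called, against 5.39% of all genes tested, and it was lower, as were 4.14% of all genes. Without overlap 5 of 8 were higher and 1 lower, against 17.9% and 20.1% of all genes. The median log2 fold change was 1.64 over the 8 genes and 0.02 over all genes tested. In bulk tumors, fewer cells of a type and less RNA per cell cannot be told apart.

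Pdcd1lg2 had the largest estimate, a log2 fold change of 3.51 ± 1.21 with a 95% interval of 0.82 to 6.19 and an edgeR adjusted p of 0.0852. Cd274 was at 2.87 ± 1.14 (interval 0.35 to 5.39, edgeR adjusted p = 0.115). Cd86 was at 2.43 ± 1.13 (edgeR adjusted p = 0.159), Tnfrsf14 at 2.24 ± 1.16 (0.195) and Cd80 at 1.04 ± 0.57 (0.217). Lgals9, at 0.68 ± 0.53 (edgeR adjusted p = 0.36), and Pvr, at -0.34 ± 0.31 (0.434), overlapped between treatments. At an unadjusted p under 0.05 there were 3 of 8 genes, Cd274, Pdcd1lg2 and Cd276, against 5317 of 15925 genes tested. These shares are close. DESeq2 called Pdcd1lg2 (adjusted p = 0.0137) and Cd276 (0.00244). The call of Cd276 was lost with RLE size factors (edgeR adjusted p = 0.0553), without the filter (0.0516) and with the compared groups alone (0.146), and held in 3 of 12 fits that left out 1 library. Those 3 were the fits without both-tumor therapy replicate 1, both-tumor IgG replicate 3 or intracranial-only IgG replicate 2.

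Without replicate 2 of the both-tumor IgG group, whose suffix differs, Cd276 was at -0.72 ± 0.17 (edgeR adjusted p = 0.157). Without it Pdcd1lg2 was at 2.96 ± 1.17 (0.194), Cd274 at 2.42 ± 1.24 (0.275), Cd86 at 1.90 ± 1.08 (0.315) and Tnfrsf14 at 1.74 ± 1.18 (0.387). Cd80 was then at 0.81 ± 0.62 (0.435), Lgals9 at 0.45 ± 0.58 (0.648) and Pvr at -0.05 ± 0.31 (0.931). Each of the other 7 estimates was thus nearer to 0 without this library, while that of Cd276 kept its size. Without both-tumor IgG replicate 1, Pdcd1lg2 was at 5.52 ± 1.46 (edgeR adjusted p = 0.084), over 1.5 times the value from all libraries.

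Both tumors against the intracranial tumor only, under therapy, asks how the brain tumor of treated mice differed where an extracranial tumor was present. Pdcd1lg2 and Cd86 were higher with both tumors, and Cd276 and Pvr were lower. Pdcd1lg2 rose by 4.84 ± 1.33 on the log2 scale, to 8.31 ± 3.03 CPM with both tumors, against 0.279 ± 0.226 CPM with the intracranial tumor only (mean ± SD, n = 3 each, edgeR adjusted p = 0.0141). Cd86 rose by 3.60 ± 1.20, to 17.4 ± 9.24 CPM with both tumors, against 1.42 ± 1.35 CPM with the intracranial tumor only (edgeR adjusted p = 0.0321). Cd276 fell by 0.77 ± 0.16, to 21.6 ± 1.93 CPM with both tumors, against 36.8 ± 5.29 CPM with the intracranial tumor only (edgeR adjusted p = 0.00483). Pvr fell by 0.86 ± 0.31, to 26.9 ± 4.79 CPM with both tumors, against 48.8 ± 20.3 CPM with the intracranial tumor only (edgeR adjusted p = 0.0442). The 4 genes called of 8 stand against 45.4% of all genes tested, with 2 higher against 24.4% and 2 lower against 21%. These shares are close, so the count alone is no result about these genes.

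Cd274 was at 3.04 ± 1.15 (interval 0.50 to 5.58, edgeR adjusted p = 0.0513) and Cd80 at 1.49 ± 0.58 (0.0571), both just outside the threshold of 0.05. Tnfrsf14 was at 2.12 ± 1.15 (edgeR adjusted p = 0.155) and Lgals9 at 0.90 ± 0.53 (0.182). Without overlap 4 of 8 genes were higher and 2 lower, against 31.4% and 28.5% of all genes. The median log2 fold change was 1.80 over the 8 genes and 0.028 over all genes. Cd276 was called in each of the 12 fits that left out 1 library and Pdcd1lg2 in 11. Cd86 was called in 8 of them and Pvr in 4. Pdcd1lg2 was lost without intracranial-only therapy replicate 1 (0.0502), and Pvr was furthest from the threshold without replicate 2 of that group, at -0.50 (0.188). The 4 fits that called Pvr were those without both-tumor therapy replicate 1, both-tumor IgG replicate 2 or 3, or intracranial-only therapy replicate 1. Cd86 was lost without replicate 1 or 2 of intracranial-only therapy (0.0957 and 0.0992) or replicate 2 or 3 of both-tumor therapy (0.084 and 0.0683). Cd274 passed in 5 of these fits, with DESeq2 (0.0227) and with the compared groups alone (0.0369). Without intracranial-only therapy replicate 3, Cd274 was at 4.71 ± 1.29 (0.0231) and Tnfrsf14 at 4.01 ± 1.30 (0.0373), the 1 fit of 12 that called Tnfrsf14. This comparison and the previous one share the 3 both-tumor therapy libraries, so their values are not independent.

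**Figure D3:**
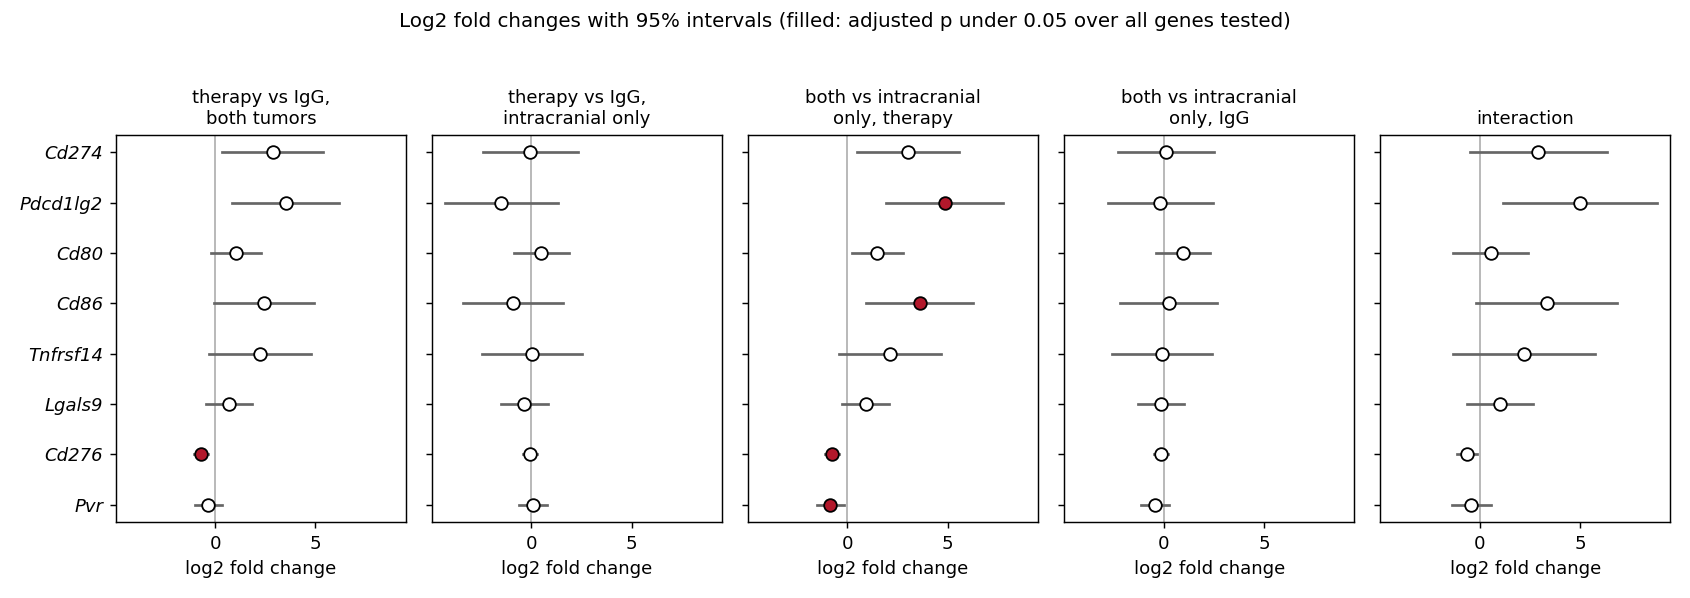
Log2 fold changes of the 8 genes in 5 comparisons, with 95% intervals, filled where the adjusted p was under 0.05. Cd276 is filled for therapy in both-tumor mice, and Pdcd1lg2, Cd86, Cd276 and Pvr are filled for both tumors under therapy.

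In intracranial-only mice, therapy against IgG gave no call among the 8 genes. By edgeR's quasi-likelihood test 0 of 8 passed, 0 had an unadjusted p under 0.05 and DESeq2 called 0, while edgeR called 0% of all genes tested. Estimates ran from -1.50 ± 1.27 for Pdcd1lg2 to 0.50 ± 0.62 for Cd80, and the libraries overlapped for each gene, while 8.78% of all genes were higher and 14.4% lower without overlap. The intervals were wide, from -2.43 to 2.33 for Cd274 and from -3.41 to 1.57 for Cd86, so large differences were not detectable at this spread. Cd276 had the narrowest, from -0.42 to 0.27. Intracranial-only IgG replicate 2 decided several signs. Without it Cd274 was at 1.86 ± 1.07, Pdcd1lg2 at 1.06 ± 1.34, Cd86 at 1.05 ± 1.12 and Lgals9 at 0.61 ± 0.38, where all 12 libraries gave negative values. The lowest edgeR adjusted p of these 4 without it was 0.593.

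Both tumors against the intracranial tumor only, under IgG, showed no call either. By edgeR's quasi-likelihood test 0 of 8 genes passed, 0 had an unadjusted p under 0.05 and DESeq2 called 0, against 0% of all genes. The estimates ran from -0.43 ± 0.31 for Pvr to 0.96 ± 0.61 for Cd80, with libraries of both groups overlapping for each gene. Of all genes, 1.68% were higher and 2.78% lower without overlap. Both replicates that stood apart belong to this comparison. Without intracranial-only IgG replicate 2, Cd274 was at 2.03 ± 1.08 and Pdcd1lg2 at 2.40 ± 1.28, and without both-tumor IgG replicate 2 they were at 0.57 ± 1.12 and 0.38 ± 1.12. None of these passed.

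The interaction tests whether the therapy effect differed between mice with both tumors and mice with the intracranial tumor only. None of the 8 genes passed, against 22% of all genes tested, 12.1% higher and 9.93% lower. Pdcd1lg2 had the largest estimate, at 5.00 ± 1.74 (interval 1.15 to 8.86, edgeR adjusted p = 0.0608), and Cd276 was at -0.64 ± 0.22 (-1.13 to -0.16, 0.0564). Both had an unadjusted p under 0.05, as did 6281 of 15925 genes tested, and DESeq2 called both (adjusted p = 0.00918 and 0.0366). The share of all genes that DESeq2 called for the interaction is not reported here, so these calls cannot be set against it. Cd86 was at 3.35 ± 1.59 (edgeR adjusted p = 0.143), Cd274 at 2.92 ± 1.54 (0.182) and Tnfrsf14 at 2.21 ± 1.60 (0.321). Lgals9, Cd80 and Pvr lay between -0.43 and 1.02. Without intracranial-only IgG replicate 2, Pdcd1lg2 was at 2.44 ± 1.73 (0.353), Cd274 at 1.00 ± 1.33 (0.635) and Cd276 at -0.67 ± 0.24 (0.0965). Without it Cd86 was at 1.38 ± 1.42 (0.53), Tnfrsf14 at 0.21 ± 1.498 (0.94), Lgals9 at 0.06 ± 0.51 (0.946) and Cd80 at -0.48 ± 0.72 (0.676). Without intracranial-only therapy replicate 3, Cd274 was at 4.65 ± 1.52 (0.073) and Tnfrsf14 at 4.16 ± 1.57 (0.092).

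Across the 12 libraries, 6 of the genes went up and down together. The 15 pairs among Cd274, Pdcd1lg2, Cd80, Cd86, Tnfrsf14 and Lgals9 had Pearson r of 0.815 to 0.985 over log2 CPM, and 0.724 to 0.986 once each group's mean was subtracted. Cd274 and Tnfrsf14, on different chromosomes, stood at 0.986 within groups. The neighbours Cd274 and Pdcd1lg2 stood at 0.912 over the 12 libraries and 0.799 within groups. The 12 pairs of these 6 genes with Cd276 or Pvr had r of -0.715 to -0.462 over the libraries and -0.432 to 0.361 within groups. Cd276 and Pvr stood at 0.669 together. The points share the libraries, their depth and their tissue makeup, the grouping into 6 and 2 was made after the values were seen, and no p is given.

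**Figure D4:**
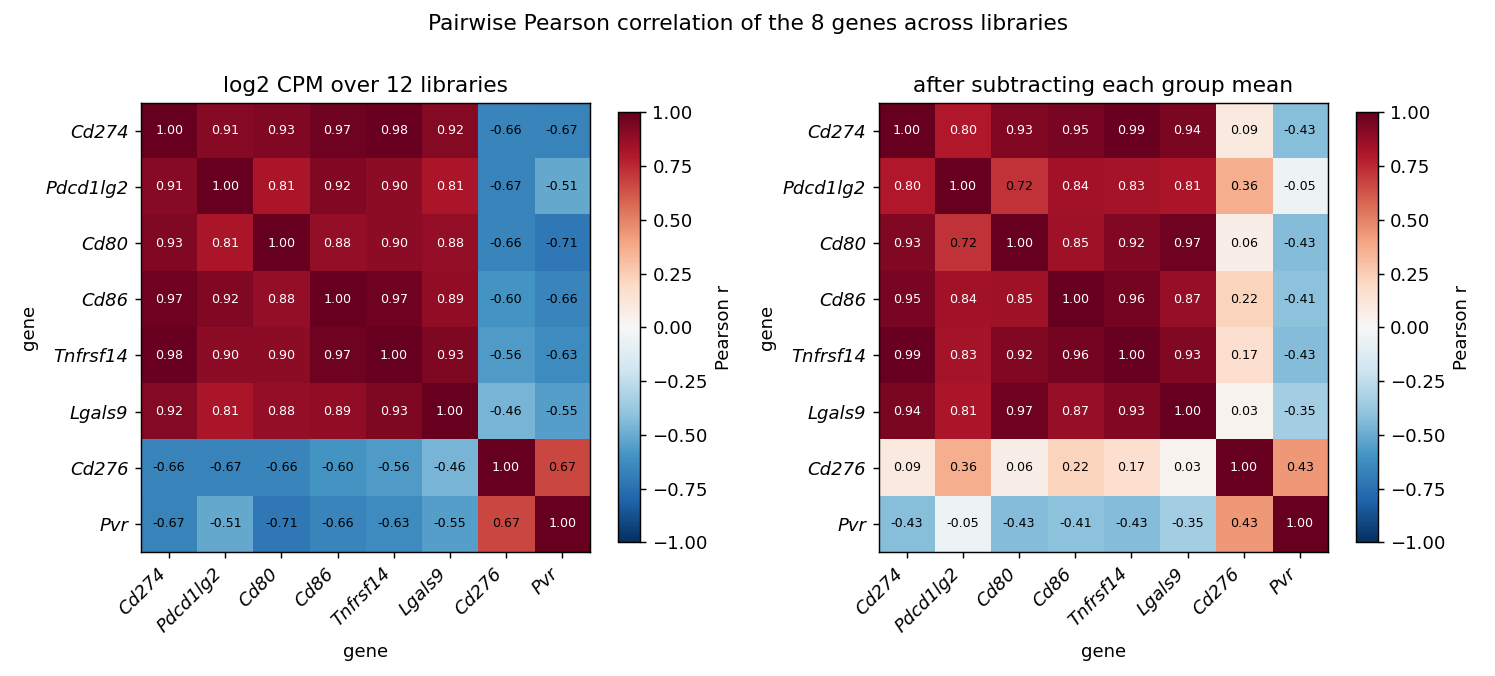
Pearson r of log2 CPM for each pair of the 8 genes over 12 libraries (left) and with group means subtracted (right), blue for negative and red for positive. The 15 pairs among Cd274, Pdcd1lg2, Cd80, Cd86, Tnfrsf14 and Lgals9 are at 0.815 or more on the left, and the link of Cd276 to Cd274 is -0.662 on the left and 0.0939 on the right.

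Outside the 8, the genes most like each by Pearson r of log2 CPM over the 12 libraries were as follows. Cd274 was closest to Vwa5a, Stom and Rnf19b (0.992, 0.992 and 0.991). Pdcd1lg2 was closest to F10, Clec4a3 and Kynu (0.985 to 0.972), and Cd80 to Fam210b, Ptafr and Cd3e (0.978 to 0.972). Cd86 was closest to the integrin gene Itgal, to Asah2 and to Klrc1 (0.992 to 0.99). Tnfrsf14 was closest to Tnfsf10, Ccrl2 and the antigen-loading gene Tapbp (0.989 to 0.988). Lgals9 was closest to the interferon-induced genes Ifi205, Ifit1 and Oas1a (0.983 to 0.981). Cd276 had lower values, with Iqgap2, Hoxa11os and Adam12 at 0.931 to 0.914. Pvr was closest to Smtnl2, to the glycolytic gene Pkm and to Ero1l (0.96 to 0.956).

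With group means subtracted, the closest genes were partly others. Cd274 then stood with Axl, H2-T23 and the perforin gene Prf1 (0.994 to 0.991), and Lgals9 with Pirb, the granzyme gene Gzmb and Gimap4 (0.995 to 0.99). Tnfrsf14 stood with Tnfsf10, the cytotoxic T cell gene Cd8a and Uba7 (0.996 to 0.992), and Cd86 with AB124611, Asah2 and Coro1a (0.994 to 0.988). Pdcd1lg2 stood with Slfn4, F10 and Clec4a3 (0.968 to 0.951), and Cd80 with Trim26, Clec4a1 and Rnase6 (0.98 to 0.978). Pvr stood with Smtnl2, Aire and the glycolytic gene Pgk1 (0.969 to 0.945).

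Most genes of a checkpoint and costimulatory receptor list were higher with both tumors under therapy. This list is wider than the receptors of the 8 genes, and also holds Icos, Lag3 and Tnfsf14, the gene of LIGHT. Of 13 checkpoint and costimulatory receptor genes 12 were tested, and 9 rose with both tumors against the intracranial tumor only, with none lower, against 24.4% and 21% of all genes. The median log2 fold change was 3.89, against 0.028 over all genes. Pdcd1 (PD-1) rose to 14.3 ± 8.22 CPM with both tumors, against 0.491 ± 0.613 CPM with the intracranial tumor only (log2 fold change 4.81 ± 1.44, edgeR adjusted p = 0.0204). Havcr2 (TIM-3) rose by 2.72 ± 0.67 (0.00901), Cd28 by 4.24 ± 1.23 (0.0181) and Ctla4 by 4.87 ± 1.64 (0.0334). Tigit rose by 3.54 ± 1.31 (0.0481) and Cd160 by 2.95 ± 0.98 (0.031), with Icos, Cd96 and Lag3 as the others called. Cd226, at 2.81 ± 1.08 (0.0537), Btla, at 1.70 ± 0.73 (0.0789), and Tnfsf14, at 2.78 ± 1.14 (0.0681), did not pass.

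For therapy against IgG in both-tumor mice, 0 of the 12 genes of this receptor list passed edgeR's quasi-likelihood test, against 1.24% of all genes called higher. At an unadjusted p under 0.05 there were 5 of 12, against 5317 of 15925 genes tested. DESeq2 called 2, and the median log2 fold change was 2.42, against 0.02 over all genes. Havcr2 was nearest at 2.36 ± 0.66 (edgeR adjusted p = 0.0544), and Pdcd1 was at 3.08 ± 1.30 (0.13), Ctla4 at 2.69 ± 1.41 (0.201) and Tigit at 3.11 ± 1.28 (0.122). Cd28 was at 2.28 ± 1.08 (0.164), Cd226 at 2.95 ± 1.09 (0.097) and Btla at 0.72 ± 0.70 (0.461). Cd160 was at 1.15 ± 0.85 (0.336) and Tnfsf14 at 1.82 ± 1.06 (0.239). In the other 3 comparisons 0 of the 12 passed, while edgeR called 12.1% of all genes higher for the interaction. There 5 of 12 had an unadjusted p under 0.05, against 6281 of 15925 genes tested. DESeq2 called 3 of the 12 for the interaction, where its share of all genes is not reported here. For therapy in intracranial-only mice and for both tumors under IgG, 0 had an unadjusted p under 0.05 and DESeq2 called 0.

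Of 12 other checkpoint ligand genes 10 were tested, and they moved both ways. With both tumors under therapy 3 rose and 2 fell, shares close to the 24.4% and 21% of all genes. These were Vsir (VISTA), by 2.90 ± 0.73 (edgeR adjusted p = 0.00994), the CD244 ligand Cd48, by 2.72 ± 0.73 (0.0135), and the macrophage inhibitory signal Cd47, by 1.00 ± 0.38 (0.0499). The TIGIT-family ligand Nectin3 fell by 0.54 ± 0.17 (0.0251) and the TIM-3 ligand Hmgb1 by 1.16 ± 0.22 (0.00458). Hmgb1 averaged 173 ± 36.0 CPM with both tumors, against 386 ± 31.5 CPM with the intracranial tumor only, and it also passed for the interaction, at -1.10 ± 0.31 (0.0354). For therapy against IgG in both-tumor mice 0 of the 10 passed edgeR's test, against 5.39% of all genes. At an unadjusted p under 0.05 there were 5, against 5317 of 15925 genes tested, and DESeq2 called 4. In intracranial-only mice, and for both tumors under IgG, 0 passed, 0 had an unadjusted p under 0.05 and DESeq2 called 0.

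Of 18 interferon gamma signaling genes, all tested, 2 rose with therapy in both-tumor mice and 18 of 18 had a log2 fold change above 0, with a median of 1.90. Of all genes 1.24% were called higher and 51.6% lay above 0, with a median of 0.02, and DESeq2 called 4 of the 18 higher. Ifngr1, a chain of the interferon gamma receptor, was at 33.9, 44.2 and 48.8 CPM with therapy, against 29.4, 23.8 and 25.5 CPM with IgG, a rise of 0.69 ± 0.17 (edgeR adjusted p = 0.0498). Socs3, a feedback inhibitor of cytokine signaling, was at 48.3, 102.6 and 97.7 CPM with therapy, against 24.7, 22.1 and 28.4 CPM with IgG, a rise of 1.72 ± 0.43 (0.0498). The groups did not overlap for either gene. Both calls were lost with RLE size factors, without the filter and with the compared groups alone, where the smallest adjusted p of any gene was 0.0553, 0.0516 and 0.146. No gene passed in 9 of the 12 fits that left out 1 library. Both also rose with both tumors under therapy, by 0.81 ± 0.17 (0.00543) and 1.69 ± 0.43 (0.0106). They were the only 2 of 18 called there by edgeR, against 24.4% of all genes called higher. Of the list 18 of 18 had a log2 fold change above 0 there, against 51.6% of all genes, with a median of 2.14 against 0.028. Without overlap 10 of 18 were higher, against 31.4% of all genes. For the interaction Socs3 alone passed (2.04 ± 0.60, 0.0391), 1 of 18 against 12.1% of all genes called higher. In both comparisons the share of the list was below that of all genes. In intracranial-only mice under therapy, and for both tumors under IgG, 0 of 18 passed, 0 had an unadjusted p under 0.05 and DESeq2 called 0. Ifng itself, the cytokine gene, was at 3.73, 18.5 and 7.72 CPM in both-tumor therapy tumors, against 1.15, 0.202 and 0.545 CPM in both-tumor IgG tumors. Its log2 fold change there, 3.96 ± 1.77, did not pass (edgeR adjusted p = 0.147). In intracranial-only tumors Ifng was at 0.0553, 0 and 2.855 CPM with therapy, against 0, 2.478 and 0 CPM with IgG.

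Markers of other cell types also differed between groups, and within groups neuron markers followed Cd274 in some groups only. Intracranial-only therapy replicate 3 had the highest Cd274 of its group, at 70.4 CPM. Its T cell marker sum was the highest of that group, at 9.44 CPM, and its neuron marker sum the lowest, at 2.49 CPM. In intracranial-only IgG tumors the neuron sum was also lowest in the replicate with the highest Cd274, at 112 CPM. Neuron sums of replicates 1, 2 and 3 were 249.6, 1039 and 836.9 CPM in both-tumor therapy tumors, in the order of Cd274. With IgG in both-tumor mice they were 284.6, 5.96 and 459 CPM, again in the order of Cd274. The summed level of 8 T cell markers was 44.0 to 92.8 CPM in both-tumor therapy tumors, against 1.57 to 14.3 CPM in both-tumor IgG tumors. It was 1.70 to 9.44 CPM in intracranial-only therapy and 0.484 to 19.4 CPM in intracranial-only IgG tumors. Of these markers 8 of 8 were above 0 on the log2 scale for therapy in both-tumor mice, against 51.6% of all genes. There edgeR called 0 and DESeq2 called 5, and 5 had an unadjusted p under 0.05, against 5317 of 15925 genes tested. Of all genes edgeR called 1.24% higher there, a share that applies to the other marker counts of therapy in both-tumor mice. DESeq2 called more of all genes there than edgeR did, as given in the closing section. With both tumors under therapy edgeR called 7 higher, against the 24.4% of all genes called higher there, and the same share applies to the other marker counts of that comparison. Cd3e, Cd3g, Cd4 and Cd5 had 0 reads in at least 1 intracranial-only library, and none of the 8 was at 0 in a both-tumor library.

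The 8 macrophage and monocyte markers summed to 584 to 879.6 CPM in both-tumor therapy and 98.7 to 283 CPM in both-tumor IgG tumors, with 1 of 8 called by edgeR and 3 by DESeq2. They summed to 82.5 to 158 CPM in intracranial-only therapy and 90.1 to 470.5 CPM in intracranial-only IgG tumors, and 5 of 8 rose with both tumors under therapy. None was at 0 in any library. Homeostatic microglia markers summed to 186 to 415 CPM in both-tumor therapy, 42.8 to 170.2 in both-tumor IgG, 45.6 to 55.2 in intracranial-only therapy and 69.8 to 105 in intracranial-only IgG tumors. Of these 2 of 8 were called with therapy in both-tumor mice and 8 of 8 with both tumors under therapy. The shares of all genes called higher were 1.24% and 24.4%. Only Siglech was at 0 in a library. Dendritic cell markers summed to 55.5 to 69.9 CPM in both-tumor therapy and 14.9 to 25.2 CPM in both-tumor IgG tumors. They summed to 11.2 to 17.6 CPM in intracranial-only therapy and 9.78 to 25.2 CPM in intracranial-only IgG tumors. For therapy in both-tumor mice 6 of 8 lay above 0, edgeR called 0 and DESeq2 called 1. There Itgax averaged 37.5 CPM with therapy, against 5.41 CPM with IgG. Zbtb46 averaged 7.64 against 7.92 CPM and Cd209a 0.676 against 0.747 CPM. With both tumors under therapy edgeR called 3 of the 8 dendritic cell markers higher.

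Neuron markers summed to 249.6 to 1039 CPM in both-tumor therapy and 5.96 to 459 CPM in both-tumor IgG tumors, with 0 of 8 called by edgeR or DESeq2 and 0 at an unadjusted p under 0.05. They summed to 2.49 to 11.3 CPM in intracranial-only therapy and 112 to 389.9 CPM in intracranial-only IgG tumors, and 8 of 8 rose with both tumors under therapy. Rbfox3 and Nefl were at 0 in a library of intracranial-only therapy. Oligodendrocyte markers summed to 860.2 to 1725 CPM in both-tumor therapy and 224.6 to 842 CPM in both-tumor IgG tumors, and to 211 to 293 CPM in intracranial-only therapy and 348 to 572 CPM in intracranial-only IgG tumors. Astrocyte markers summed to 1186 to 2120 CPM in both-tumor therapy and 296 to 977 CPM in both-tumor IgG tumors, and to 347 to 377 CPM in intracranial-only therapy and 696 to 1022 CPM in intracranial-only IgG tumors. With both tumors under therapy 8 of 8 oligodendrocyte and 7 of 8 astrocyte markers rose. Endothelial markers summed to 140.2 to 193 CPM in both-tumor therapy and 81.4 to 127 CPM in both-tumor IgG tumors, but moved both ways. They summed to 88.0 to 92.4 CPM in intracranial-only therapy and 105 to 126 CPM in intracranial-only IgG tumors. For therapy in both-tumor mice edgeR called 1 of 8 higher, and Emcn averaged 3.76 CPM with therapy, against 5.35 CPM with IgG. With both tumors under therapy 5 were called higher and 1 lower, against 24.4% and 21% of all genes. B cell markers summed to 17.3 to 27.5 CPM in both-tumor therapy and 1.82 to 9.62 CPM in both-tumor IgG tumors, and neutrophil markers to 15.3 to 74.6 CPM in both-tumor therapy and 3.69 to 6.30 CPM in both-tumor IgG tumors. Of the 8 melanoma markers edgeR called 0 in both comparisons, with 0 at an unadjusted p under 0.05, and DESeq2 called 0 for therapy in both-tumor mice and 1 higher with both tumors under therapy. The part of these cell types in the levels of the 8 ligand genes was not tested.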

How the data were processed

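RNA-seq was measured in 12 intracranial tumors. Tissue was lysed at once, RNA was isolated with the RNAqueous-Micro kit and libraries were made with a NEBNext Ultra kit, per the labels' protocols. Reads were processed with TopHat2 2.0.12, Bowtie2 2.2.3 and HTSeq 0.6.1 on GRCm38/mm10, per the submitters' processing notes. The sources used here do not state the annotation release or strand setting. The authors deposited raw read counts per gene and a table of FPKM. For 16062 of 16062 genes with a read in every library, the deposited FPKM equalled the count divided by 1 length per gene and the library total, within 1e-06, so FPKM was used for levels between genes.

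In R 4.3.3, counts were tested with edgeR 4.0.16 (quasi-likelihood test), using TMM factors, filterByExpr (minimum count 10, minimum total 15) and a fit of 4 group means over 12 libraries. This kept 15925 of 47069 genes, and the common dispersion was 0.112. P-values were adjusted over all tested genes by Benjamini-Hochberg, and calls were made under 0.05. Standard errors are the absolute log2 fold change over the square root of F, with 95% intervals on 10.6 residual degrees of freedom. Log2 CPM used a prior count of 2. The script was tested on simulated data. Alternatives were DESeq2 1.42.0, limma 3.58.1 on log2(FPKM + 1) and log2(FPKM + 0.1), RLE size factors, no filter, the compared groups alone and leaving out each library. A fold change on the log2(FPKM + pseudocount) scale understates the change of low genes.

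The genes, lists and tests were chosen with earlier results of these data known. All 8 ligand genes are named in every comparison. Genes of the receptor, ligand and interferon gamma lists are named where they passed, with the receptors of the 8 genes in the comparisons that hold both-tumor therapy tumors. Genes most alike are the 3 named genes with the highest Pearson r. For Cd276 with group means subtracted, they are not reported here. The Ifng values and the ratios between genes were added after values were seen. Gene coordinates come from GENCODE on GRCm38. Replicates were numbered in accession order, which pairs nothing.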

Additional observations from a re-analysis of the deposited data

How the results depend on the processing

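No paired analysis was possible because the labels give no replicate numbers shared between groups. For therapy against IgG in both-tumor mice, 1 of the 8 genes was called. With RLE size factors, without the filter and with the compared groups alone 0 were called, as were 0 of all genes. DESeq2, log2(FPKM + 1) and log2(FPKM + 0.1) called 2 each, and 3133, 2630 and 1759 of all genes, against 858; their share of higher calls was 43.6%, 46% and 30.9%, against 23.1%. Leaving out 1 library gave 0 to 1 of the 8 genes and 0 to 2394 of all. For therapy in intracranial-only mice, all genes called were 839 with the compared groups alone, 1035 with DESeq2 and 0 to 1002 leaving out 1 library, against 0. For both tumors under therapy, leaving out 1 library gave 2 to 6 of the 8 genes and 4710 (without both-tumor therapy replicate 2) to 8128 of all genes, against 4 and 7231. For the interaction, DESeq2 called 2 of the 8 genes and both FPKM settings 1, against 0. How many of all genes these settings called there is not reported here. Leaving out 1 library gave 0 to 1 of 8 and 0 to 4367 of all genes for the interaction, against 3505. The cause of these shifts was not tested.

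Signs turned in 10 values outside the library removals. In intracranial-only mice, Tnfrsf14 was -0.039 with the compared groups alone and -0.001 with DESeq2, against 0.02. Cd274 was 0.003 and 0.022, against -0.05, and Pvr -0.032 and -0.035, against 0.08, with log2(FPKM + 1) and log2(FPKM + 0.1). For both tumors under IgG, these gave 0.14 and 0.14 for Lgals9, against -0.12, and 0.20 and 0.29 for Tnfrsf14, against -0.10. Leaving out 1 library turned signs in the same comparisons. In intracranial-only mice the ranges were -1.80 to 1.86 for Cd274, -2.30 to 1.06 for Pdcd1lg2, -0.10 to 1.52 for Cd80, -2.08 to 1.05 for Cd86, -0.197 to 0.044 for Cd276, -0.81 to 0.61 for Lgals9, -0.29 to 0.30 for Pvr and -1.94 to 2.03 for Tnfrsf14. Under IgG they were -0.35 to 2.03 for Cd274, -2.18 to 2.40 for Pdcd1lg2, -0.26 to 2.21 for Cd86, -0.45 to 0.84 for Lgals9 and -0.58 to 1.90 for Tnfrsf14. The interaction of Cd80 ran from -0.48 to 1.12. None of these values passed. Depth limits Pdcd1lg2 and Cd80 most.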
